A study of Mus musculus with 4 samples.

Results

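The genes described here are 36 regulators and executioners of apoptosis: the BCL2 family, the caspases, the factors released from mitochondria, the inhibitor of apoptosis proteins and the adaptors and kinases of the death-receptor complex. They were listed by gene symbol and found in the count tables of 4 libraries through their Ensembl identifiers. The tables hold 50600 genes, of which 21764 are protein-coding, and all 36 were present. The cells were primary T cells of C57BL/6NJ mice, an inbred laboratory strain, and their RNA was sequenced in bulk. Per the file headers the cells were activated and taken at 72 h, under names that open with mmTh0, and the labels link a protocol for differentiating CD4 T cells. All 4 libraries form 1 group of biological replicates, so no treatment or genotype is compared, and sex and age are not given. One donor identifier is repeated for the 4 replicates, and the labels do not say which came from separate animals. Xist and the Y-linked Ddx3y, whose values are given with Xiap, set replicates 1 and 2 apart from replicates 3 and 4, so the 4 did not all come from the same animal. How much of the spread between libraries is technical is not known, and p-values measure only the spread between these samples. The labels call the assay total RNA, whereas the linked library protocol is named for polyadenylated RNA.

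Apoptosis through the mitochondrial route begins when BH3-only proteins bind the pro-survival BCL2 proteins or activate the effectors BAX and BAK, which then open the outer mitochondrial membrane. Cytochrome c leaves the mitochondrion, assembles APAF1 into the apoptosome and activates caspase-9, while the death receptors signal through FADD and caspase-8. In T cells this machinery sets how long an activated cell lives: BCL2 maintains resting cells, BCL-xL and A1 are induced on stimulation, and BIM ends the response.

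Each library held between 49613182 and 94222415 counts in genes. Of the 10 T-cell marker genes examined, 10 were detected, and they summed to between 8204 and 8555 TPM (transcript level, a count divided by exon length and scaled to the same total in each library). Of 6 neutrophil markers 0 were detected, and 5 of them were at 0 counts in all libraries. Of 10 macrophage and monocyte markers 3 were detected, and the 10 summed to between 36.9 and 40.4 TPM. Levels are from bulk RNA, where fewer cells of a type and less RNA per cell cannot be told apart.

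Of the 36 genes, 33 had 1 TPM or more in each of the 4 libraries, the level called detected here. The same held for 49.4% of protein-coding genes. The 3 that did not were Bcl2a1a, Hrk and Casp12. The median over the 36 mean levels was 42.5 TPM, beside 34.8 TPM for detected protein-coding genes. Together the 36 genes summed to 2947 ± 34.9 TPM (SD, n = 4), or 0.295% of all TPM. Bax, Bcl2l1 and Mcl1 made up 42.9 ± 1.27% of that sum.

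**Figure D1:**
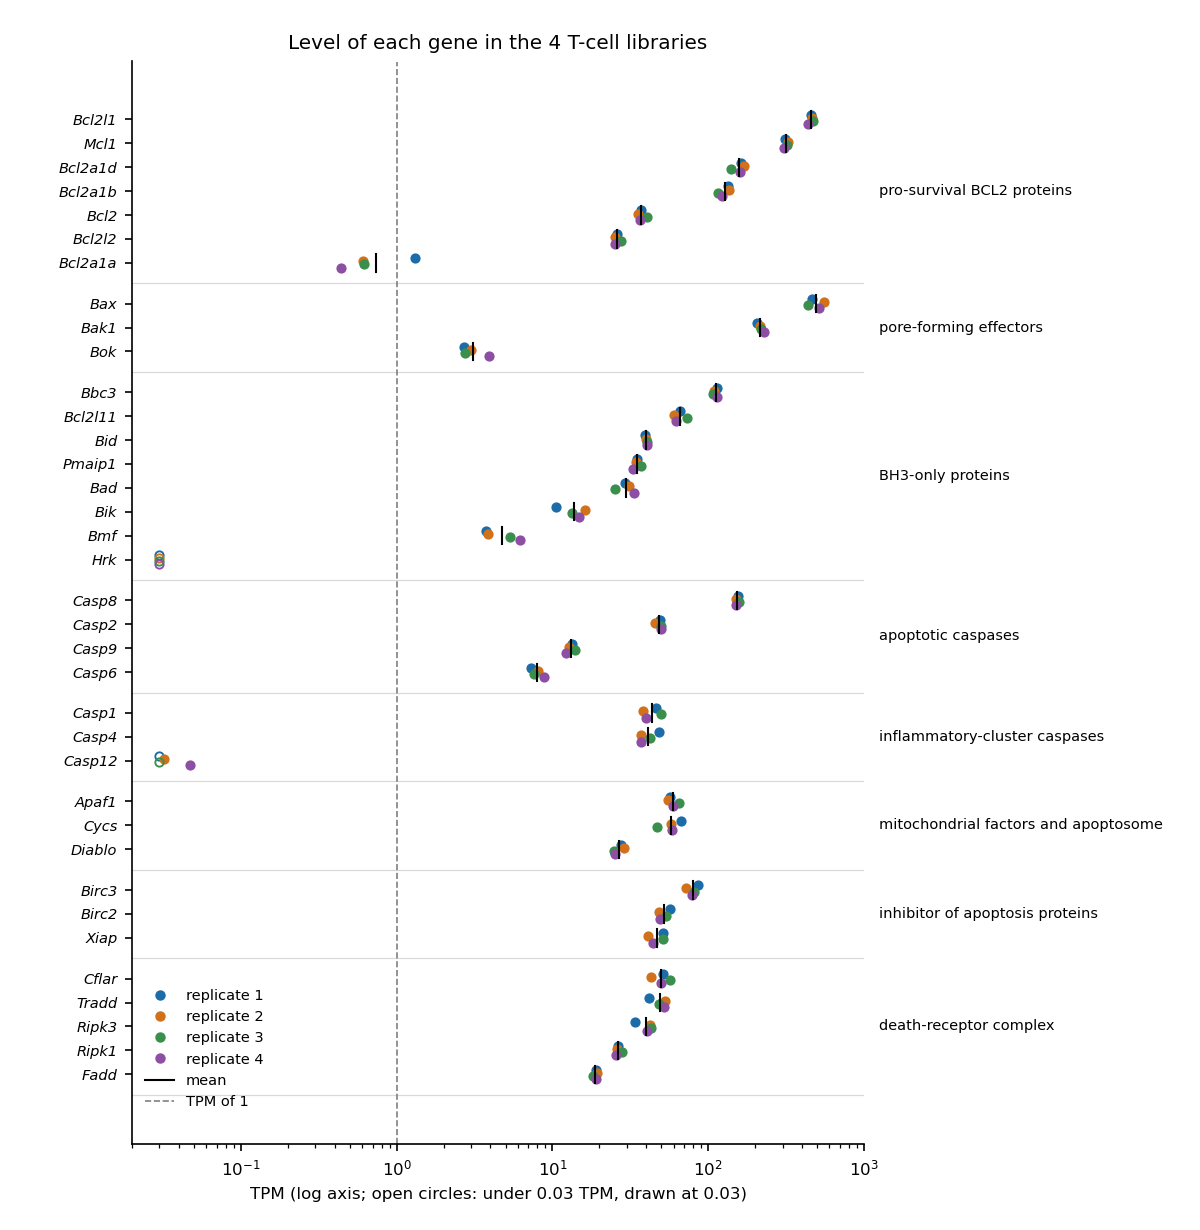
TPM of each of the 36 genes on a log axis, grouped by role; points are the 4 libraries, black ticks their mean, open circles values under 0.03 TPM drawn at 0.03, and the dashed line is the detection level of 1 TPM. Within most genes the 4 points nearly coincide, and Bcl2a1a, Hrk and Casp12 lie at the left.

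Among the pro-survival genes, A1 is carried in the mouse by several near-identical copies, of which Bcl2a1a, Bcl2a1b and Bcl2a1d are members here. The first 90 bases of their coding sequences, from GENCODE release M21 transcripts, show how little separates them. Capitals mark bases that are not the same in all 3 copies.
Bcl2a1a coding bases 1 to 90: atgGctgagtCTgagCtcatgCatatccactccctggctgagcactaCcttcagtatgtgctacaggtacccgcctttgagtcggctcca
Bcl2a1b coding bases 1 to 90: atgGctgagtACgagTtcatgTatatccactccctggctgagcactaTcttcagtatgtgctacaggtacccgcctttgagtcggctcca
Bcl2a1d coding bases 1 to 90: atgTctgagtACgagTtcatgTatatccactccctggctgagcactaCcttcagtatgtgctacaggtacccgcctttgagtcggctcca
The stretch holds 6 of the 12 variable bases of the coding sequence, which is 516 bases long in each copy. Bcl2a1a and Bcl2a1b differed at 11 bases (97.9% identity), Bcl2a1a and Bcl2a1d at 7 (98.6%) and Bcl2a1b and Bcl2a1d at 6 (98.8%).

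The sequence upstream of the 3 copies is also alike where it aligns, as the RefSeq promoter windows on GRCm38.p6 (mm10) show. They are printed because Bcl2a1a was measured more than 100-fold below each of the other copies. Capitals in the Bcl2a1b and Bcl2a1a windows mark bases not matched in the Bcl2a1d window when the full 250-base windows were aligned. Bases that lie in an annotated exon were left off the printed ends.
Bcl2a1d promoter, chr9:88731915-88732100, minus strand: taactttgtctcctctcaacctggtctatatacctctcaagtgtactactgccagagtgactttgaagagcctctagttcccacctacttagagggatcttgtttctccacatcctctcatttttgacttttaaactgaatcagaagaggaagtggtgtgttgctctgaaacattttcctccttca
Bcl2a1b promoter, chr9:89199023-89199208, plus strand: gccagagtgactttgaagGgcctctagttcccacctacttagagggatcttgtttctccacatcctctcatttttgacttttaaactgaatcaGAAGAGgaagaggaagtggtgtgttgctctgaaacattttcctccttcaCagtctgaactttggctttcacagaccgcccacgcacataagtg
Bcl2a1a promoter, chr9:88956670-88956899, plus strand: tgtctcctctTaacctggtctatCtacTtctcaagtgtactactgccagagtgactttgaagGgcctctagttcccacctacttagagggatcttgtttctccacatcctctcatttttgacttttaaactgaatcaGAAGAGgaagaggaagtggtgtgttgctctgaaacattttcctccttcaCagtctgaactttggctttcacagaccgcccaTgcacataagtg
Identity was 99.5% over 206 aligned bases for Bcl2a1a and Bcl2a1b, 97.5% over 244 bases for Bcl2a1a and Bcl2a1d, and 99.0% over 200 bases for Bcl2a1b and Bcl2a1d. Only aligned bases were counted. Gaps, such as the longest run of capitals, and window ends without a partner were left out.

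Bcl2a1d was measured at 162, 171, 139 and 159 TPM in replicates 1 to 4, and Bcl2a1b at 135, 135, 116 and 123 TPM. Bcl2a1a had 18, 8, 7 and 10 counts, which is 1.31, 0.605, 0.614 and 0.439 TPM. Bcl2a1a was thus far below the other copies in every library, and replicate 3 was the lowest library for both high copies. The Bcl2a1d level was between 124 and 363 times that of Bcl2a1a, and the Bcl2a1b level between 103 and 281 times. Bcl2a1d exceeded Bcl2a1b in 4 of 4 libraries, by up to 1.29 times, and the lowest Bcl2a1d value, 139 TPM, was just above the highest Bcl2a1b value, 135 TPM.

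How far reads can be assigned among the copies limits these values. Of all 50-base windows in their transcripts, 69.0% in Bcl2a1a, 79.2% in Bcl2a1b and 79.5% in Bcl2a1d also occurred in another gene. For 100-base windows the shares were 43.5%, 56.8% and 54.7%. In addition, 49.1% of the exon bases of Bcl2a1b lie on the same strand in exons of the predicted gene Gm29094, which itself had 1, 27, 10 and 15 counts. With those shared bases taken out of its length, the mean of Bcl2a1b became 250.3 TPM instead of 127 TPM, and the order of Bcl2a1b and Bcl2a1d turned round. The order of these 2 copies therefore depends on the length used. By default the counting tool drops read pairs that overlap several genes, and the headers set no option to keep them. The full-length value of Bcl2a1b may therefore be understated. How read pairs that match more than 1 of the 3 copies were treated, and its part in the low Bcl2a1a level, was not tested.

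**Figure D2:**
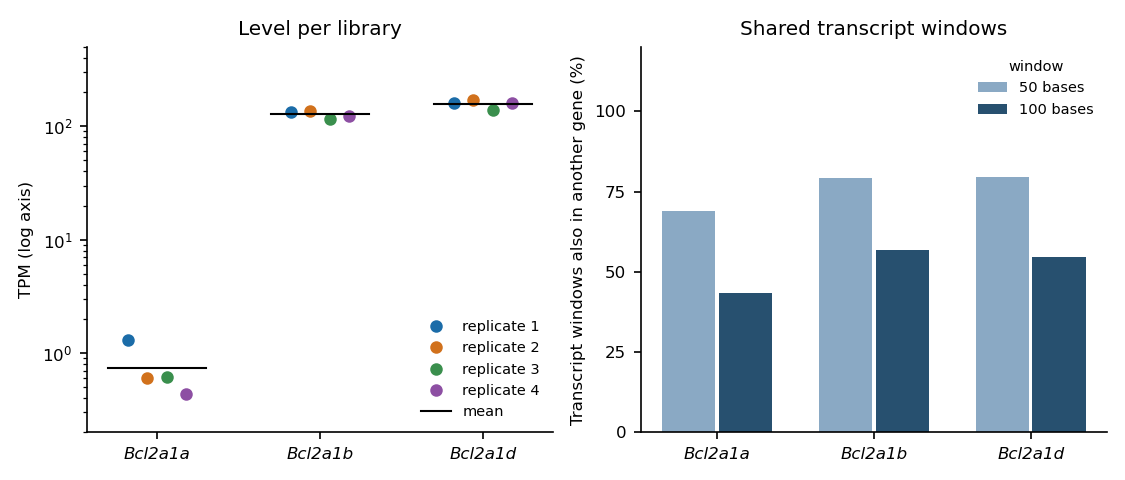
Left, TPM of the 3 Bcl2a1 copies per library on a log axis, with the mean as a line; right, the percentage of 50-base and 100-base transcript windows of each copy that also occur in another gene. Bcl2a1a lies between 0.439 and 1.31 TPM and the other copies lie at 116 TPM or more, while all 3 share between 69.0% and 79.5% of their 50-base windows.

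Bcl2l1, which encodes BCL-xL, was the highest pro-survival gene at 456, 461, 474 and 435 TPM. Mcl1, a short-lived protein needed by lymphocytes, was at 310, 323, 321 and 305 TPM. Bcl2 itself was at 37.0, 35.3, 40.2 and 36.2 TPM, below both in every library and with no overlap of ranges. Bcl2l1 stood 11.8 to 13.1 times above Bcl2, and Mcl1 7.99 to 9.16 times. On the log2(TPM + 1) scale Bcl2l1 minus Bcl2 was 3.58 ± 0.06 and Mcl1 minus Bcl2 was 3.05 ± 0.08 (SD, n = 4). Mcl1 was below Bcl2l1 in 4 of 4 libraries, by -0.53 ± 0.03. Bcl2l2, which encodes BCL-w, was the lowest detected pro-survival gene at 26.1 ± 1.11 TPM. Of its exon bases, 13.3% are shared on the same strand with Gm20521.

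Within-library differences were taken for 16 pairs of genes, which were chosen with earlier results of these data known. With the full exon lengths, each had the same sign in 4 of 4 libraries. The exact two-sided sign-flip test over 4 libraries gives p = 0.125 for each, the smallest it can give, and the value is unchanged by Benjamini-Hochberg adjustment over the 16. No pair can therefore pass a threshold of 0.05, and the differences are given with their SD.

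Of the pore-forming effectors, Bax was at 465, 557, 437 and 515 TPM, the highest mean of all 36 genes at 493 ± 53.1 TPM. Bak1 was at 206, 214, 217 and 228 TPM. Bax was above Bak1 in every library, by 2.02 to 2.60 times or 1.18 ± 0.15 on the log2(TPM + 1) scale, and above Bcl2 by 10.9 to 15.8 times or 3.69 ± 0.23. Replicates 2 and 4 were the high libraries for Bax, and its range overlapped that of Bcl2l1, which Bax exceeded in 3 of 4 libraries. Bok, a less studied relative of Bax and Bak1, was at 2.72, 2.99, 2.73 and 3.89 TPM, the lowest of the 33 detected genes. Of the Bax exon bases, 12.2% are shared with Gm45808, which had 0 counts. With those bases taken out of its length, the mean of Bax was 562 TPM.

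The BH3-only genes, whose products sense damage or loss of survival signals, covered a wide range. Bbc3, which encodes PUMA, was the highest at 115, 109, 108 and 115 TPM. Bcl2l11, which encodes BIM, was at 66.1, 60.1, 73.5 and 62.1 TPM. Bcl2l11 was below Bbc3 in every library without overlap, by -0.76 ± 0.15 on the log2(TPM + 1) scale, with the smallest gap in replicate 3. In counts Bcl2l11 was above Bbc3, with 8907, 7792, 8222 and 13844 against 4082, 3733, 3183 and 6761. The TPM order therefore rests on the exon lengths, 8029 bases for Bcl2l11 and 2124 for Bbc3.

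Pmaip1 encodes NOXA, which binds MCL1, and was at 35.0, 34.4, 36.9 and 32.9 TPM. Its level was 0.106 to 0.115 times that of Mcl1, a difference of -3.14 ± 0.05 on the log2(TPM + 1) scale. Bid, which caspase-8 cleaves to link the death receptors to mitochondria, was at 39.2, 40.0, 40.3 and 40.7 TPM. Bad, whose product is held inactive by phosphorylation, was at 29.1, 31.1, 25.1 and 33.6 TPM. Bid was above Bad in every library by 0.43 ± 0.17, and the ranges did not overlap.

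Bik was at 13.8 ± 2.40 TPM and Bmf, which responds to cytoskeletal stress, at 4.76 ± 1.18 TPM. These were the only detected genes among the 36 whose highest library exceeded the lowest by more than 1.5 times. Hrk had 0 counts in all 4 libraries, so a floor of 3 counts per library allows at most 0.0379 TPM, a limit that covers counting error only.

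Among the apoptotic caspases, the initiator Casp8 was the highest at 156, 151, 157 and 151 TPM, and its SD of log2 CPM (counts scaled to library size without length) was the smallest of the 33 genes, 0.0229. The stress-linked initiator Casp2 was at 48.6 ± 2.26 TPM. Casp9, the caspase of the apoptosome, was at 13.3, 12.8, 13.9 and 12.2 TPM, and Casp6, an executioner, was the lowest at 7.29, 8.06, 7.64 and 8.89 TPM. The 4 genes kept separate ranges in the order Casp8, Casp2, Casp9, Casp6.

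The inflammatory caspases lie side by side on chromosome 9: Casp4 starts 1.6 kb after Casp1 ends, and Casp12 8.6 kb after Casp4. Their upstream windows are printed because Casp1 and Casp4 were well expressed and Casp12 had almost no counts. Capitals mark CpG dinucleotides (CG, which reads the same on both strands); bases in an annotated exon were left off.
Casp1 promoter, chr9:5298267-5298516, plus strand: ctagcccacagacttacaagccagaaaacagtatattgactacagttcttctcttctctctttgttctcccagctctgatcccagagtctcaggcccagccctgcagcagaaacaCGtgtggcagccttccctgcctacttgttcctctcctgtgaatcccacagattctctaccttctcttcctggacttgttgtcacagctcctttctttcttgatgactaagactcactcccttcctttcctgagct
Casp4 promoter, chr9:5308599-5308827, plus strand: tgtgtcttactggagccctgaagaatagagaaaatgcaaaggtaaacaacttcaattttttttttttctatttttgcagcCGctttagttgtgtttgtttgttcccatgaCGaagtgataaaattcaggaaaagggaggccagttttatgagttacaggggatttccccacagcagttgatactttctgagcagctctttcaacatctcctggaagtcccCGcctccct
Casp12 promoter, chr9:5345226-5345429, plus strand: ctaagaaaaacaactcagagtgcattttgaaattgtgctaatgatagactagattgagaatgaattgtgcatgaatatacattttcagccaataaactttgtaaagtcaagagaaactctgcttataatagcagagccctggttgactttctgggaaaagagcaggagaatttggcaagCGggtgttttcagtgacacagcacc
They hold 1, 3 and 1 CpG. Of the 32851 promoter windows of 250 bases in the RefSeq table, 92.1% hold at least 1 CpG, with a median of 6, and the 46 windows of the genes described here had a median of 12.5.

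Casp1, which cleaves pro-interleukin-1 beta, was at 46.3, 37.9, 50.1 and 40.1 TPM. Casp4, the mouse caspase-11 that senses cytosolic lipopolysaccharide, was at 48.6, 37.1, 42.5 and 37.2 TPM. Their ranges overlapped, and both were higher in replicates 1 and 3 than in replicates 2 and 4. Casp12 had 0, 2, 0 and 5 counts, at most 0.0469 TPM. The macrophage markers Lyz2, Csf1r and Itgam had between 0 and 8 counts in a library, while Ms4a6c, Cd68 and Adgre1 were detected, with means of 22.7, 10.5 and 3.21 TPM. Their part in the Casp1 and Casp4 levels was not tested.

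Cytochrome c (Cycs) was at 67.3, 57.3, 47.0 and 58.5 TPM, high in replicate 1 and low in replicate 3. Apaf1, the scaffold that cytochrome c assembles, was at 56.9, 55.1, 65.2 and 59.4 TPM, with replicate 3 the highest. Casp9 was below Apaf1 by -2.09 ± 0.09 on the log2(TPM + 1) scale in 4 of 4 libraries, or 0.205 to 0.235 times its level. Diablo, which encodes the IAP antagonist SMAC, was at 27.5, 28.7, 24.9 and 25.4 TPM. On either strand, 22.6% of the 100-base transcript windows of Cycs were shared with other genes, led by Gm10053, and 33.5% of those of Diablo, led by B3gnt4. The counting was by strand, and 20.9% of the Diablo exon bases lie opposite exons of B3gnt4 and AC157931.1. Cycs exons overlap no other gene on either strand, so its shared windows match genes elsewhere, which counting by strand does not separate.

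The inhibitor of apoptosis genes were close together. Birc3 (cIAP2) was at 86.0, 71.9, 81.4 and 79.0 TPM and Birc2 (cIAP1) at 57.0, 48.6, 53.3 and 48.9 TPM; the products are ubiquitin ligases of TNF receptor signalling. Both were highest in replicate 1 and lowest in replicate 2. These neighbours lie 11.6 kb apart on the same strand of chromosome 9, and Birc3 minus Birc2 was 0.61 ± 0.05 on the log2(TPM + 1) scale. So small an SD was not particular to neighbours. Pmaip1 minus Mcl1, from different chromosomes, also had an SD of 0.05, and the neighbours Casp8 and Cflar had 0.14.

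Xiap, the direct caspase inhibitor and the only X-linked gene of the 36, was at 51.1, 41.2, 51.5 and 44.2 TPM. It was below Birc2 in 4 of 4 libraries by -0.14 ± 0.08, although the ranges overlapped. In counts Xiap was above Birc2 in every library, so this order rests on the exon lengths, 9262 bases for Xiap and 4580 for Birc2. The libraries differed in sex-linked RNA: Xist was at 332, 150, 0.877 and 0.392 TPM and the Y-linked Ddx3y at 0.0344, 0.0834, 49.0 and 45.8 TPM. The Xiap values did not follow that division, since replicates 1 and 3 were the high libraries.

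In the death-receptor complex, Cflar, which encodes the caspase-8 inhibitor FLIP, was at 51.1, 43.0, 56.7 and 49.4 TPM. Casp8, which lies 36.5 kb from Cflar on chromosome 1, was 2.76 to 3.51 times as high, or 1.61 ± 0.14 on the log2(TPM + 1) scale. In counts the order was the reverse, with 7593, 7046, 6312 and 12168 for Casp8 and 10855, 8797, 9997 and 17387 for Cflar. The TPM order therefore rests on the exon lengths, 2893 bases for Casp8 and 12669 for Cflar. The adaptor Tradd was at 41.8, 52.6, 48.4 and 52.1 TPM and the adaptor Fadd at 19.1, 19.3, 18.2 and 19.0 TPM. Fadd was below Tradd in every library by -1.32 ± 0.15, with no overlap, and the gap was smallest in replicate 1, where Tradd was low.

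Ripk1, a kinase scaffold of survival and death signalling, was at 26.3, 26.1, 28.2 and 25.4 TPM, and Ripk3, the necroptosis kinase, at 34.1, 42.5, 42.7 and 40.5 TPM. Ripk1 was below Ripk3 by -0.57 ± 0.14 in 4 of 4 libraries. Of the Ripk1 exon bases, 34.3% are shared on the same strand with Gm17084, which had 3 to 8 counts. With those bases taken out of the length, the mean of Ripk1 was 40.3 TPM and the difference was 0.02 (exact sign-flip p = 0.875), so the order of the kinases rests on the length used. Because the counting tool drops read pairs that overlap several genes by default, the full-length value of Ripk1 may be understated.

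By role, pro-survival genes made up 38.0 ± 0.724% of the summed TPM and the effectors 24.2 ± 1.69%. BH3-only genes made up 10.2 ± 0.256%, apoptotic caspases 7.58 ± 0.252%, the death-receptor complex 6.25 ± 0.337%, the inhibitor of apoptosis genes 6.06 ± 0.543%, the mitochondrial factors 4.86 ± 0.216% and the inflammatory caspases 2.89 ± 0.371%. The effector share was 22.9, 25.8, 22.5 and 25.4%, so replicates 2 and 4 stood above replicates 1 and 3. Without the 3 Bcl2a1 copies the pro-survival share was 31.4% and remained the largest.

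**Figure D3:**
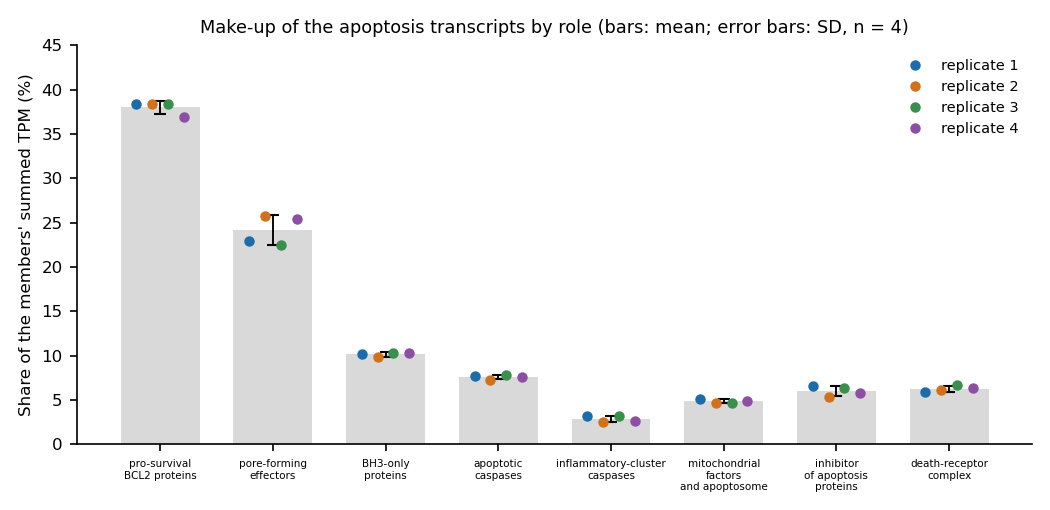
Share of the summed TPM of the 36 genes held by each role, in percent; bars are the mean of 4 libraries, error bars the SD and points the libraries. The pro-survival bar stands at 38.0% and the effector bar at 24.2%, and the other 6 roles are at or below 10.2%.

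When the 36 genes were put in order of mean TPM, 12 of the 35 neighbouring pairs had separate ranges and 23 overlapped. The order was the same in every library for 19 of the 35. Of the separate steps, 6 lay at the top, from Bcl2l1 to Mcl1, Mcl1 to Bak1, Bak1 to Bcl2a1d, Casp8 to Bcl2a1b, Bcl2a1b to Bbc3 and Bbc3 to Birc3. The place of Bcl2a1b in this order rests on its full exon length: without the shared bases its mean of 250.3 TPM lies between those of Mcl1 and Bak1, above Bcl2a1d and Casp8, and the steps from Mcl1 to Bak1, from Casp8 to Bcl2a1b and from Bcl2a1b to Bbc3 are no longer between neighbours. From Birc3 down to Bcl2l2, each gene overlapped the next one in the order.

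Other genes of the pathway were taken from a list of 49, of which 42 were detected. The death receptor gene Fas was at 38.7, 46.7, 47.8 and 45.2 TPM and its ligand Fasl at 100.2, 91.2, 94.7 and 89.5 TPM, with no overlap. Trp53, a transcriptional activator of Bax, Bbc3 and Pmaip1, was at 217, 214, 238 and 229 TPM.

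Among the other classes, the highest genes were the mitochondrial channel Vdac1 (369 ± 4.29 TPM), the cytokine Tnf (248 ± 37.2 TPM), the ubiquitin-ligase component Rbck1 (203 ± 4.70 TPM), Bnip2 (119 ± 4.30 TPM), the mitotic BIR protein Birc5 (115 ± 7.95 TPM) and the inflammasome adaptor Pycard (54.5 ± 5.08 TPM). The lowest were the nuclease Dffb (31.1 ± 1.17 TPM), Tnfrsf1a (30.3 ± 1.51 TPM), the deubiquitinase Cyld (33.8 ± 2.20 TPM), Cradd (6.74 ± 0.979 TPM) and Naip6 (0.153 ± 0.0507 TPM). Bcl2l10 and Casp14 had 0 counts in all libraries, and Nlrp3 had 1 count in replicate 2 and 0 in the others.

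With 1 group, the test the design allows is whether a gene varies between libraries more than genes of like abundance. An edgeR negative binomial fit was made over 13681 genes, and each gene's deviance was referred to a chi-square distribution. It called 94 genes, or 0.687%, at a Benjamini-Hochberg adjusted p under 0.05. None of the 33 genes tested here was called (0 of 33), and the smallest adjusted p in the edgeR fit was 0.311, for Cycs. At an unadjusted p under 0.05 there were 3 of 33, beside 7.01% of all genes, and these were Cycs, Bax and Bmf. With DESeq2's size factors and dispersion trend the count was also 0.

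Of the 49 other pathway genes, 46 were tested and 0 were called by edgeR, with 4 at an unadjusted p under 0.05 (Zbp1, Birc6, Tnf and Pycard) and a smallest adjusted p of 0.188. The count was 1 with DESeq2's size factors and dispersion trend (Birc6), with a common dispersion (Bcl2l15) and with an offset for gene length (Tnf). Of all genes tested, these settings called 0.767%, 4.51% and 0.76%. Bcl2l15 had 33, 10, 22 and 19 counts in replicates 1 to 4. In simulated data of the same size, genes drawn from all those tested were raised in 2 of the 4 libraries. The simulated counts followed the trended dispersion fitted to the data, without scatter of single genes around it. The edgeR test recovered 22% of those changed 1.5-fold and 76% of those changed 2-fold. A change of the first size would mostly be missed over such genes. The share for genes with counts like those of the genes described here was not tested.

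The median SD of log2 CPM was 0.0889 over the 33 genes and 0.128 over all genes tested. Over the 10417 genes whose mean count was 200 or more, as it was for 32 of the 33, the median was 0.103. Of the 33 detected genes, 31 had a highest library within 1.5 times of the lowest.

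**Figure D4:**
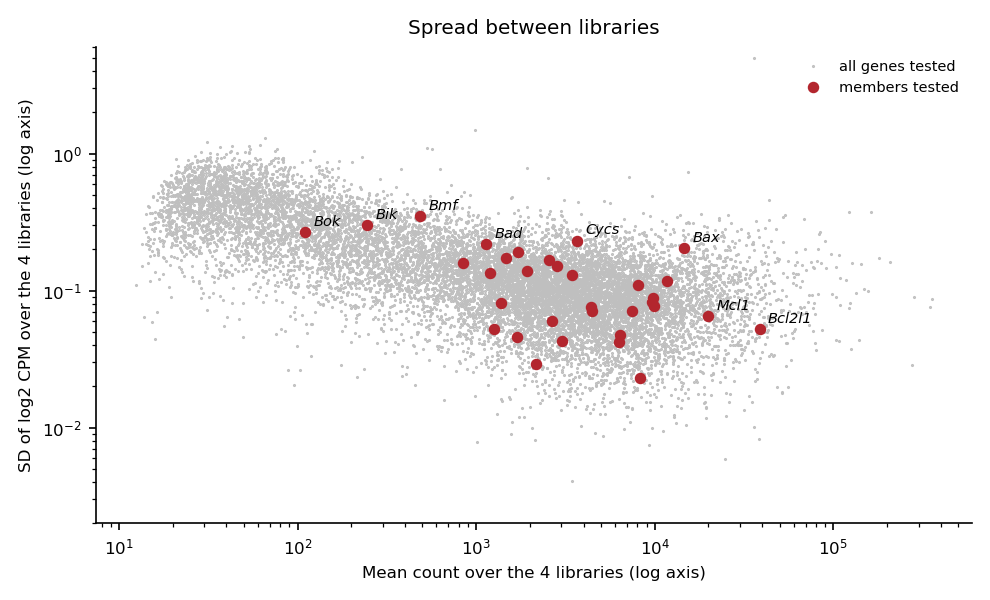
SD of log2 CPM over the 4 libraries against the mean count, both on log axes; grey points are the 13681 genes tested and red points the 33 apoptosis genes among them. The red points lie within the grey cloud, with Bmf, Bik and Bok at the upper left and Bcl2l1 and Mcl1 at the right.

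Libraries also differed with gene length. Over all genes tested with exons under 2 kb, the median log2 CPM relative to each gene's mean was -0.02, 0.11, -0.12 and 0.05 in replicates 1 to 4, and over genes of 8 kb and more it was 0.04, -0.10, 0.09 and -0.03. The 8 apoptosis genes under 2 kb, Bax among them, had medians of -0.15, 0.16, -0.13 and 0.07, and the 5 of 8 kb and more had -0.01, -0.06, 0.09 and -0.01. Replicate 2 was the high library for short genes in both sets, and the low one was replicate 3 over all genes and replicate 1 over the 8. The part of this trend in the spread of single genes was not tested. With a length offset in the edgeR fit, 0 of the 33 were called.

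**Figure D5:**
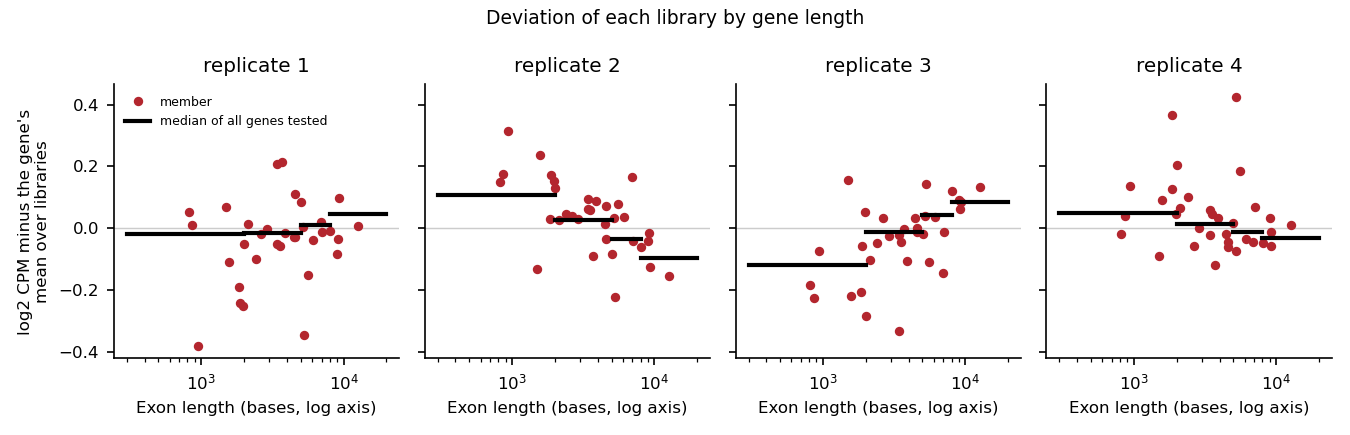
Log2 CPM minus each gene's mean over libraries, against exon length on a log axis, 1 panel per replicate; red points are the 33 apoptosis genes and black lines the median of all genes tested in 4 length ranges. In replicate 2 the lines fall from 0.11 to -0.10 and in replicate 3 they rise from -0.12 to 0.09.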

How the data were processed

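Bulk RNA-seq was measured in 4 mouse T-cell libraries, each used on its own. The deposited values are raw counts per gene: featureCounts 1.4.6-p4 was run by the authors, per the file headers, on read pairs whose ends both aligned, on the reverse strand, over the exons of each gene in GENCODE mouse release 13. The headers set no option for reads that map to several places or overlap several genes. Read pairs that overlap several genes are dropped by default, so TPM on full exon lengths may be understated for genes with same-strand overlap. The alignment name in the headers includes STAR (version not given in the sources used here). Per the labels, the build is mm10. The exon lengths are the authors' deposited values, in bases. Counts in genes were 58522696, 53569919, 49613182 and 94222415 in replicates 1 to 4.

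TPM was computed from the counts and exon lengths. Symbols came from GENCODE mouse release 21 (50376 of 50600 identifiers matched). Detection required 1 TPM in every library. Spread between libraries was tested with R 4.3.3 and edgeR 4.0.16 (filterByExpr, TMM, trended dispersion, deviance on 3 residual degrees of freedom, Benjamini-Hochberg over all genes), with DESeq2 1.42.0 as an alternative. The biological coefficient of variation was 11.11%. The test was tried on simulated counts for the 13681 genes and recovered 22, 76, 92 and 98% of genes changed 1.5-, 2-, 3- and 4-fold, with 4 false calls among 148. Those counts were drawn from the trended dispersion that the test assumes, so these figures need not carry over to genes off that trend. Pairs used log2(TPM + 1) and an exact sign-flip test. Sequences were compared with Biopython 1.88, figures drawn with matplotlib 3.10.9, and tables handled in Python 3.11.15 with pandas 2.3.3, numpy 2.4.6 and scipy 1.17.1. RefSeq promoter windows on GRCm38.p6 matched 33 of the 36 genes.

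The genes, role classes, pairs and other lists were chosen with earlier results of these data known. All 36 genes are given with mean or replicate values. Replicate values are given for the highest and lowest gene of each role, genes not detected, the 3 Bcl2a1 copies, Xiap, and both genes of each of the 16 pairs. Of the other pathway genes, Fas, Fasl, Trp53 and the highest and lowest of each class are given; some values under this rule, with 1 of the pairs, are not reported here. Lists of markers of T cells, CD8 T cells, macrophages, neutrophils, B cells, natural killer cells, dendritic cells and fibroblasts or endothelium were read. Detected were 1 of 2 CD8, 2 of 8 B-cell, 1 of 6 natural killer, 2 of 6 dendritic and 2 of 8 fibroblast or endothelial markers. Alternatives covered detection thresholds, TPM scale, normalization, dispersion, count filters, pseudocount, length and each replicate left out.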

Additional observations from a re-analysis of the deposited data

Results flagged for a closer look

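In groups of 4 values, a library was singled out where its gap to the nearest other value was too large a part of the whole range by Dixon's test at the 95% level. Of 107 such groups 5 stood out, and chance alone gives about 1 in 20. Naip5, a BIR-domain inflammasome sensor, had 0.483 TPM in replicate 3 and 0.149 to 0.202 TPM in the others. Rbck1, a component of the linear ubiquitin ligase, had 196 TPM in replicate 2 and 204.7 to 205.3 TPM in the others. Nlrp3, an inflammasome sensor, had 0.0153 TPM in replicate 2, which is 1 count, and 0 in the others. The pro-survival share of the summed TPM was 36.9% in replicate 4 and 38.4% in each of the others. Fadd minus Tradd was -1.09 on the log2(TPM + 1) scale in replicate 1 and -1.41 to -1.36 in the others.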

How the results depend on the processing

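Samples could not be paired between groups because the libraries form 1 group, and only genes were paired, within each library. Of the alternatives run, 193 values of the main comparisons kept their direction and side of the threshold or stayed within their spread, 14 moved and 2 turned round. Some of the 193 could not have changed. The TPM scale cancels in the role shares, and asking for 5 TPM in both genes left the pair values as they were. Pairs of genes without exon bases shared on the same strand were also untouched by the change of length. That does not make their order free of length. For Casp8 and Cflar, Bcl2l11 and Bbc3, and Xiap and Birc2 the order in counts was the reverse of that in TPM. Leaving out each replicate in turn left the number of detected apoptosis genes at 33 and the number called variable by edgeR at 0. With length free of exon bases shared on the same strand, an alternative chosen after seeing the data, Bcl2a1b minus Bcl2a1d was 0.66 and Ripk1 minus Ripk3 was 0.0182. The cause is the shorter length itself. It also gave shares of 39.5% (pro-survival), 9.51% (BH3-only), 7.08% (apoptotic caspases) and 4.54% (mitochondrial). Without the 3 Bcl2a1 copies the shares were 31.4% (pro-survival), 26.8% (effectors), 11.3% (BH3-only), 8.40% (apoptotic caspases), 5.39% (mitochondrial), 6.71% (inhibitors of apoptosis) and 6.92% (death-receptor complex), because fewer genes were summed. Pathway genes called variable numbered 1 with DESeq2's trend, 1 with a common dispersion and 1 with the length offset, also chosen after seeing the data; the cause was not tested. A common dispersion called 617 of all genes, against 94 in the edgeR fit. Leaving out a replicate called between 38 and 87 (46 without replicate 1, 38 without replicate 2 and 46 without replicate 4). Low counts limit the values of Hrk, Casp12 and Bcl2a1a, which had 18 counts or fewer in a library. The part of depth in this was not tested.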
